A study of Mus musculus with 18 samples.

Results

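Of 14064 PU.1 peaks in the merged day 0 list of MEL cells, 1357 lay outside every DNase hypersensitive site of day 0 and matched no peak of the merged day 5 list. These peaks, called closed-site peaks here, are genome regions listed as PU.1 peaks in untreated cells where neither DNase library of that day listed open chromatin. They were selected on measured values: an overlap of at least 1 bp with a DNase site of either day 0 replicate, or with a merged day 5 PU.1 peak, kept a peak out. MEL is a mouse erythroleukemia line, grown here in RPMI with serum. The day 5 cultures had been kept for 5 days in 2% dimethyl sulfoxide (DMSO), which drives the line to make hemoglobin, and the day 0 cultures had no DMSO. The labels name no other agent or allele on either day, so the cultures stand for 1 transformed line and not for erythroid cells at large. On each day PU.1 ChIP-seq, DNase-seq, RNA-seq and ChIA-PET for RNA polymerase II were done on 2 cultures, called biological replicates in the labels. ChIA-PET lists pairs of regions that contact each other at polymerase. The other day 0 peaks fell into 3 groups: 213 outside day 0 sites with a merged day 5 peak, 9441 inside sites without one, and 3053 inside sites with one.

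PU.1, encoded by Sfpi1 (Spi1), is an ETS-family transcription factor that binds purine-rich DNA and directs myeloid and B-cell development. In erythroid precursors it restrains the GATA1 program, and its level falls as these cells mature. Like other factors described as pioneers, it can bind sites packed in nucleosomes, and such binding need not be followed by opening of the DNA. DNase I cuts DNA most readily where nucleosomes are displaced, so DNase hypersensitive sites mark promoters, enhancers and other occupied elements.

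The cultures carried the transcripts of their label. The 7 erythroid markers reported (Gata1, Klf1, Tal1, Epor, Hba-a1, Hbb-b1 and Alas2) were above 1 FPKM in all 4 RNA libraries, with summed levels of 24996 and 29768 FPKM in the lowest and highest day 5 library against 1216 and 1797 FPKM on day 0. The 6 reported markers of other blood cells were below 1 FPKM in every library, and Csf1r, Cd14, Cd3e and Mpo were listed at 0 in all 4. Sfpi1 itself had 2.37 and 3.55 FPKM in the day 5 libraries, against 55.4 and 101 FPKM in the day 0 libraries. The number of reads behind each list of regions is unknown. The PU.1 lists held 10714 and 18614 peaks for the day 5 replicates and 34590 and 46077 for the day 0 replicates, while the DNase lists were longer on day 5, with 617606 and 518066 sites, than on day 0, with 190924 and 252611 sites. With 2 libraries a day an exact permutation test over samples could not pass a threshold of 0.05, and regions of 1 library are not replicates. No test was run. The 95% Wilson intervals given with shares cover counting error over regions only.

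Closed-site peaks were the weakest and narrowest of the 4 groups of day 0 peaks by their medians. The score of the merged list is, within 0.01 for all 1357 peaks, the mean of the −log10 p of the authors' peak caller in both day 0 replicates. Its median was 20.1 in closed-site peaks (quartiles 13.4 and 29.2, range 3.50 to 119), against 58.0 in peaks outside sites with a day 5 peak, 27.6 in peaks inside sites without one and 84.8 in peaks inside sites with one. The strongest closed-site peak ranked 1145 of all 14064 peaks. Of the 1406 peaks with the lowest scores, 406 were closed-site peaks, and of the 1406 with the highest, 5 were. The irreproducible discovery rate (IDR), which is low where both replicates rank a peak alike, was above 0.01 for 54.8% of closed-site peaks (52.2 to 57.5%), against 7.51%, 32.1% and 2.75% of the other groups in the same order. Over all day 0 peaks 27.5% had an IDR above 0.01. All of these values describe the list from which the peaks were chosen.

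**Figure D1:**
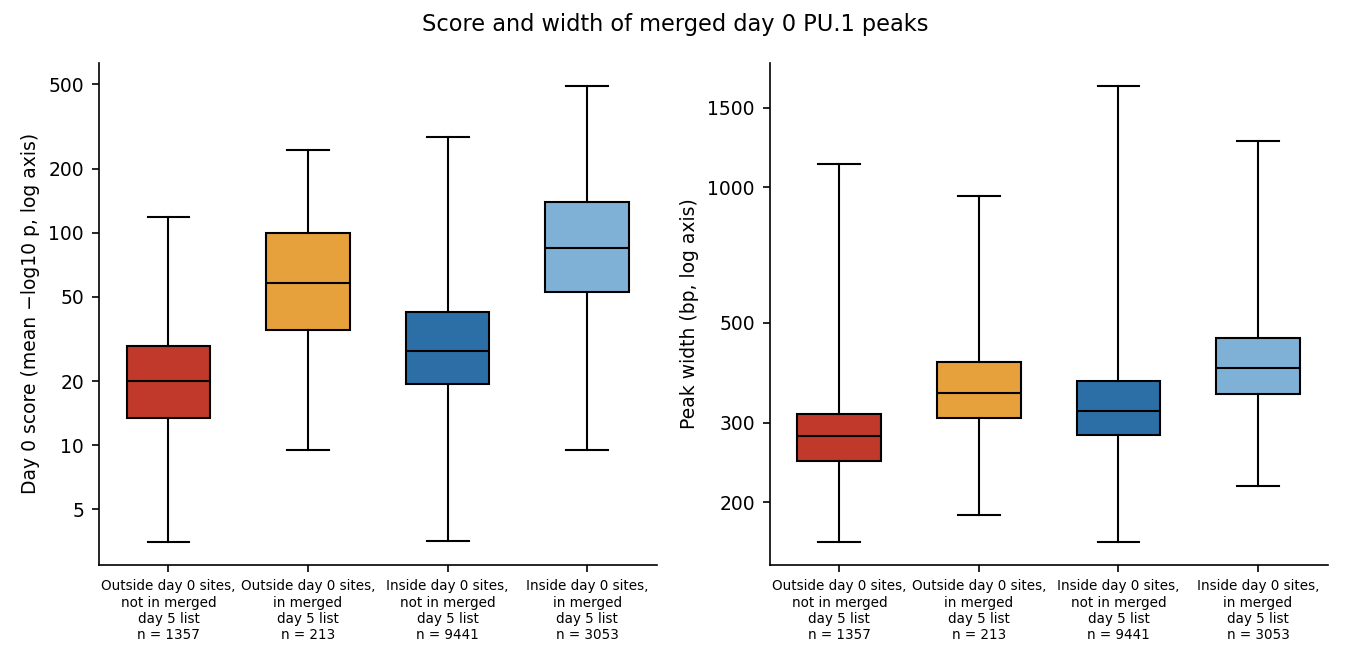
Score (left, mean −log10 p) and width (right, bp) of the merged day 0 PU.1 peaks in the 4 groups, both on log axes. Boxes span the quartiles with the median as a line, and whiskers reach the lowest and highest peak; the closed-site peaks, at the left, have medians of 20.1 and 280 bp, below the medians of the 3 other groups.

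Width followed the same order. Closed-site peaks had a median width of 280 bp (quartiles 247 and 314), against 349 bp, 319 bp and 396 bp in the other groups in the order above. The difference from peaks inside sites without a merged day 5 peak stayed when peaks of like score were set side by side. All day 0 peaks were split by score into 10 bins of equal size, and in each of the 9 bins that held at least 20 closed-site peaks their median width was smaller, by 11 to 20.5 bp. The fold enrichment over background had medians of 9.65 and 9.03 in day 0 replicates 1 and 2 for closed-site peaks. The corresponding medians were 11.7 and 11.8 for peaks inside sites without a merged day 5 peak.

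The strongest closed-site peaks were clear peaks in each day 0 library. The highest score, 119, belonged to chr10:5744319-5745445 (mm9, as all coordinates here), which was also the widest closed-site peak at 1127 bp. Its fold enrichment was 6.56 and 3.91 in the day 5 replicates, against 18.1 and 29.8 in the day 0 replicates. The peak chr4:3664149-3664557 (score 118) had folds of 6.41 and 10.3 on day 5 against 38.0 and 33.7 on day 0. For both peaks the 2 day 5 folds lay below the 2 day 0 folds. The peak chr10:90469440-90469866 (score 116) had 2.88 and 4.53 on day 5 against 21.3 and 19.1 on day 0. The peak chr15:6494619-6494991 (score 113) had 6.94 and 12.3 on day 5 against 45.7 and 27.0 on day 0, the highest day 0 fold of any closed-site peak in either replicate. The peak chr4:3444964-3445399 (score 109) had a peak in day 5 replicate 2 alone, with a fold of 9.77, against 34.5 and 31.1 on day 0. These 5 were thus still listed by at least 1 day 5 replicate, though none reached the merged day 5 list. They lay 2309, 48, 1337, 2112 and 21 bp from the nearest day 0 site in the order given, and none overlapped a day 5 site. At the other end, 2 peaks within 53745 bp on chromosome 3 (chr3:98300711-98300986 and chr3:98354180-98354455) shared the lowest score of 3.50, with folds of 2.39 and 2.26 in day 0 replicates 1 and 2 at both places. The next lowest, chr17:68536982-68537231, scored 3.94. None of these 3 had a peak in day 5 replicate 1, and the peak on chromosome 17 had a fold of 3.11 in day 5 replicate 2.

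Loss from the merged day 5 list did not mean that every day 5 library lacked a peak. A peak of day 5 replicate 1 overlapped 331 closed-site peaks (24.4%) and a peak of replicate 2 overlapped 573 (42.2%), against 46.8% and 67.8% of all day 0 peaks. Either replicate listed 632 (46.6%, 43.9 to 49.2%), against 70.2% of all day 0 peaks and 63.3% of peaks inside sites without a merged day 5 peak. Both replicates listed 272 (20.0%, against 44.4% of all day 0 peaks), and neither listed 725. Since the rule used the merged day 5 list, these counts only describe the peaks. Day 5 peaks were short, with median widths of 130 and 138 bp in replicates 1 and 2 at closed-site peaks, and when a day 5 peak had to cover at least 50% of the day 0 peak 19.8% of closed-site peaks still had one.

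The share listed on day 5 followed the day 0 score. It was 13.0% in the lowest quartile of closed-site peaks by score, then 33.6%, 58.4% and 81.7% in the next quartiles upward. The same held per replicate, from 3.76% to 54.9% in replicate 1 and from 11.3% to 75.8% in replicate 2. Peaks inside sites without a merged day 5 peak, weighted to the score distribution of the closed-site peaks over these 10 bins, had a share of 50.4%. The difference in day 5 listing between the groups, 46.6% against 63.3%, was thus 46.6% against 50.4% at like score. In the lowest bin by score the shares were 15.0% and 22.6%, and in bin 5 they were 67.1% and 68.1%. The order was the other way in bins 6, 7 and 9, with 81.7% against 73.4%, 83.3% against 80.0% and 96.6% against 92.3%. It was also the other way in bin 10, which held 5 closed-site peaks, with 100% against 98.2%.

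**Figure D2:**
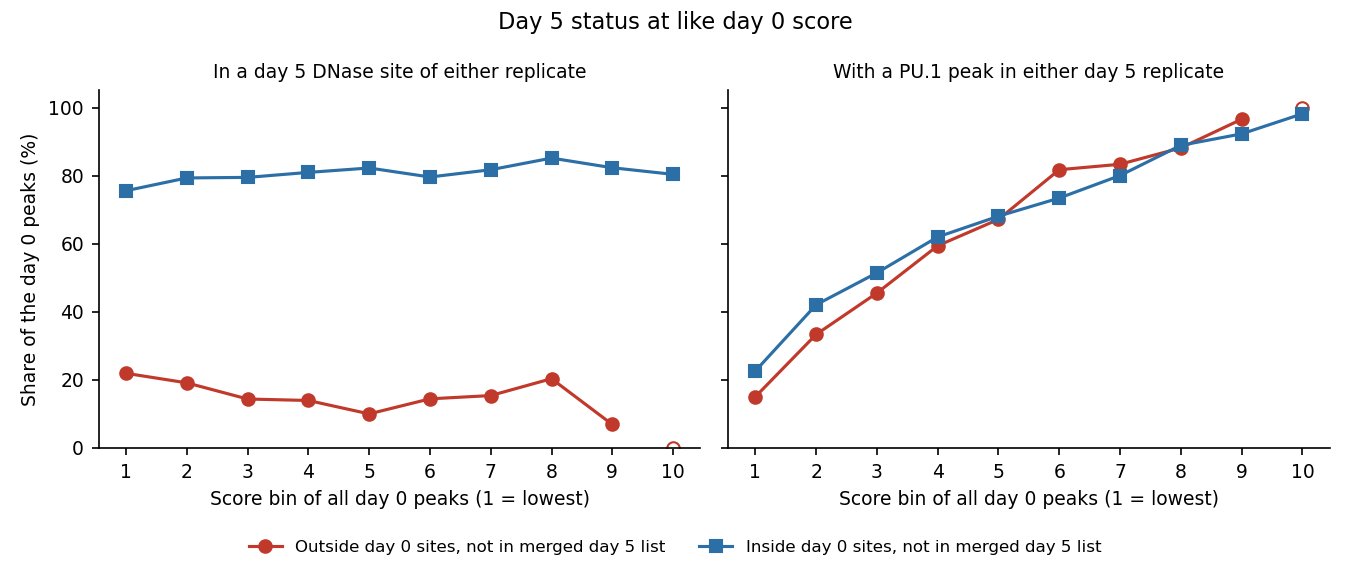
Share of day 0 peaks (%) in a day 5 DNase site of either replicate (left) and with a PU.1 peak in either day 5 replicate (right), by score bin of all day 0 peaks (10 bins of equal size, 1 the lowest), for closed-site peaks (red circles) and peaks inside sites without a merged day 5 peak (blue squares). The open circle marks a bin with 5 closed-site peaks; the DNase shares stay far apart in every bin, at 21.9% against 75.6% in the lowest, while the PU.1 shares lie close together.

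The peaks still listed on day 5 had lower folds there, in the same PU.1 lists that the rule used, so these values describe the chosen peaks and support nothing further. The 272 closed-site peaks with a peak in both day 5 replicates had median folds of 5.59 and 6.68 in day 5 replicates 1 and 2, against 14.7 and 12.2 in day 0 replicates 1 and 2. In 244 of the 272 both day 5 folds were below both day 0 folds. The mean day 5 fold divided by the mean day 0 fold had a median of 0.464 (quartiles 0.355 and 0.570) and was below 1 in 270 of 272. The same ratio was 0.429 in the 2700 peaks inside sites with a peak in both day 5 replicates but none in the merged list, and 0.562 and 0.527 in the groups outside and inside sites that kept a merged peak. The 725 closed-site peaks in no day 5 list had been weaker on day 0, with median folds of 8.27 and 7.55 and a median score of 15.7, against a median score of 34.5 for the 272. The level of Sfpi1 and the lengths of the PU.1 lists, given above, moved the same way between the days, and their part in these values was not tested.

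**Figure D3:**
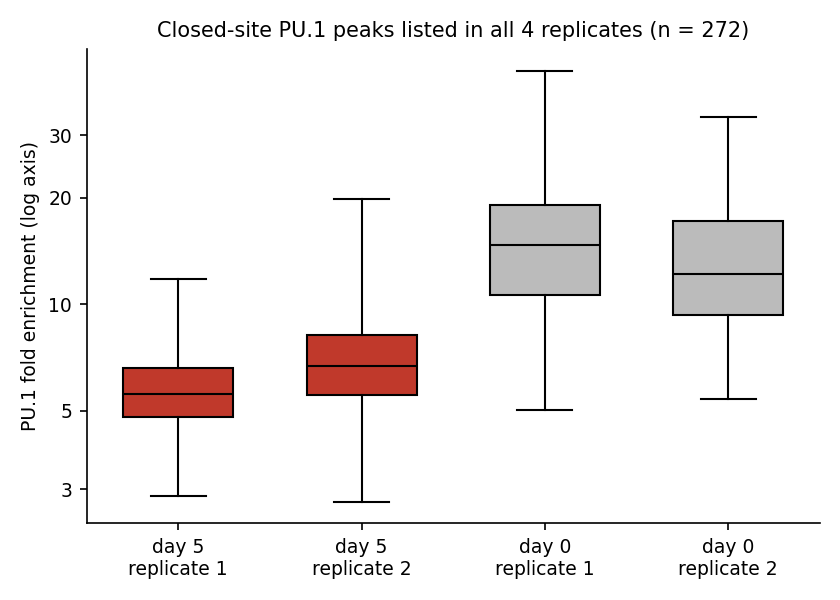
PU.1 fold enrichment (log axis) in each replicate for the 272 closed-site peaks listed in both day 5 replicates, with day 5 in red at the left and day 0 in grey. Boxes span the quartiles with the median as a line, and whiskers reach the lowest and highest value; day 5 medians are 5.59 and 6.68, against 14.7 and 12.2 on day 0.

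Most closed-site peaks did not lie in a DNase site on day 5. The DNase libraries of day 5 took no part in the choice of the peaks. The day 5 sites covered 217 and 178 Mb in replicates 1 and 2. The share of regions placed at random that would meet a site was not computed. An overlap is thus not read as opening of a peak. Day 5 replicate 1 listed a site over 150 closed-site peaks (11.1%) and replicate 2 over 120 (8.84%), against 70.3% and 67.3% of all day 0 peaks. A site of either replicate lay over 230 (16.9%, 15.0 to 19.0%), against 76.0% of all day 0 peaks. It was 11.3% (7.69 to 16.2%) of peaks outside sites with a merged day 5 peak, 80.5% of peaks inside sites without one, and 92.8% of peaks inside sites with one. A site in both replicates lay over 40 closed-site peaks (2.95%, 2.17 to 3.99%), against 61.5% of all day 0 peaks. Of the peaks with a day 5 site in either replicate, 17.4% of closed-site peaks had it in both, against 78.7% of peaks inside sites without a merged day 5 peak. At like score the gap was about as wide. Weighted to the scores of the closed-site peaks, the share inside sites without a merged day 5 peak was 79.2% in place of 80.5%. The groups were split by day 0 sites, so this gap is in large part set by the choice of the peaks. Of the day 5 sites over peaks inside sites without a merged day 5 peak, 99.8% overlapped a day 0 site in each replicate. Weighting by score cannot remove this.

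**Figure D4:**
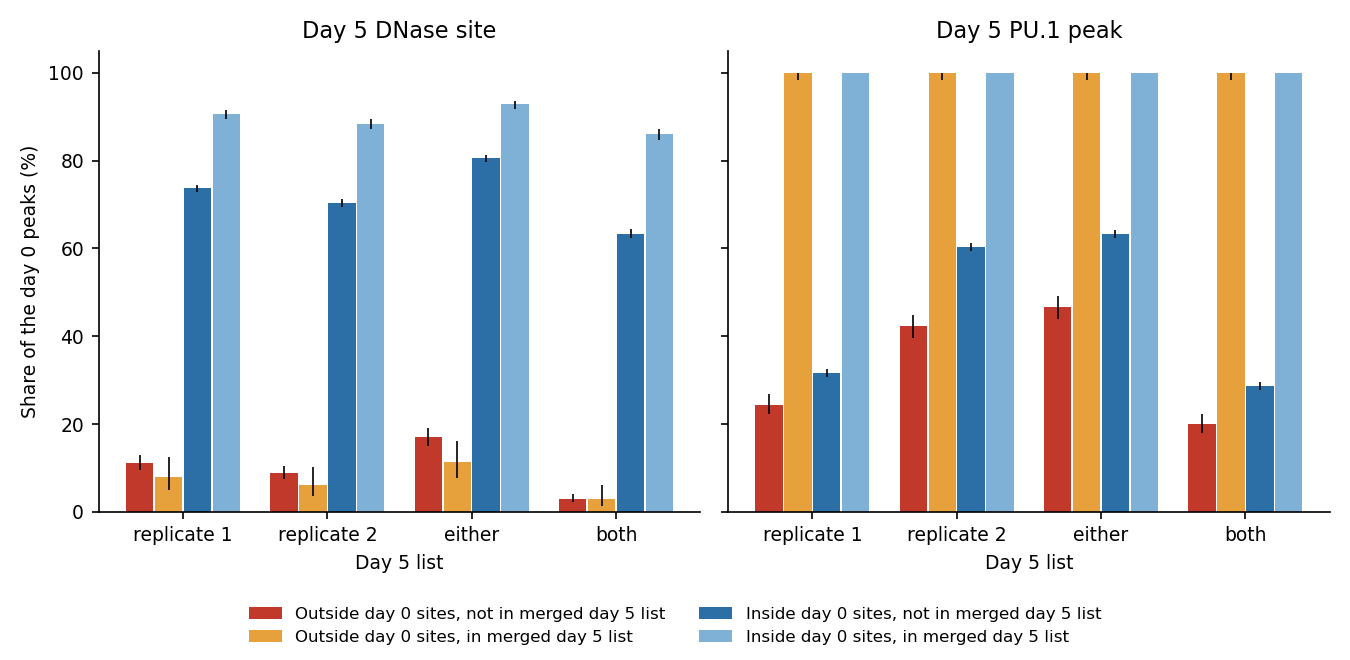
Share of each group of day 0 peaks (%) in a DNase site (left) and with a PU.1 peak (right) of day 5 replicate 1, replicate 2, either or both, with 95% Wilson intervals for counting error. Closed-site peaks (red) stay at 16.9% or less for DNase sites, and the groups in the merged day 5 list are at 100% for PU.1 by construction.

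The day 5 sites over closed-site peaks were close to the lowest score that the lists hold. Their scores had medians of 3.08 and 2.84 in day 5 replicates 1 and 2, where the lists start at 2 and all sites have medians of 3.25 and 3.18. Scores below 4 made up 72.7% and 85.8% of them. Most sites of the day 5 lists at large also scored below 4, as their medians show. Upper quartiles were 4.11 and 3.54 over closed-site peaks, against 4.24 and 4.26 over all day 5 sites. Low scores were thus common in these lists and not particular to closed-site peaks. Over peaks inside sites without a merged day 5 peak the medians were 14.6 and 19.6, and 18.7% and 17.9% of scores were below 4. The highest scores over any closed-site peak were 28.4 in replicate 1 and 184 in replicate 2. The sites were also short and covered the peaks in part: their median widths were 288.5 and 249.5 bp, and they covered a median of 55.0% and 40.0% of the closed-site peak. A day 0 site was overlapped by 12.0% and 9.17% of them, a share that the choice of peaks away from day 0 sites holds down. In lists made from many cells, a site open in few cells and a site weakly open in all cells cannot be told apart. With each day 5 list cut to its highest-scoring sites, as many as the same-numbered day 0 list held, 5.45% of closed-site peaks lay in a site, against 68.3% of peaks inside sites without a merged day 5 peak.

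Closed-site peaks in a day 5 site of either replicate had somewhat lower PU.1 scores on day 0, which the stricter count in both replicates did not show as an order. By quartiles of the closed-site peaks from low to high score, 21.4%, 20.1%, 12.4% and 13.9% lay in a day 5 site of either replicate. For a site in both replicates the shares were 3.18%, 3.00%, 3.83% and 1.77%. The 230 peaks in a day 5 site of either replicate had a median score of 17.0 and the 40 in a site of both had 19.3, against 20.7 in the other 1127. The 230 lay nearer to a day 0 site, at a median of 2448 bp against 5418 bp, and had a median of 20 day 0 sites within 50 kb against 8. A PU.1 peak of either day 5 replicate was listed at 45.2% of them (38.9 to 51.7%) and at 46.9% of the others (44.0 to 49.8%), so the intervals overlapped.

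The 5 highest-scoring closed-site peaks with a site in both day 5 replicates were on chromosomes 15, 2, 3, X and 15. The strongest was chr15:8471211-8471704, with a day 0 score of 65.1 and day 5 site scores of 4.77 and 2.41 in replicates 1 and 2. Its PU.1 fold was 4.93 and 8.18 in the day 5 replicates, against 13.7 and 8.88 in the day 0 replicates, so the ranges of the 2 days were apart. The peak chr2:45355994-45356344 (score 40.0) had site scores of 2.53 and 2.17, with PU.1 folds of 7.48 and 5.14 on day 5 against 20.5 and 12.8 on day 0. The peak chr3:86955435-86955751 (score 39.2) had site scores of 4.49 and 3.25, with PU.1 folds of 6.11 and 5.88 on day 5 against 15.5 and 17.7 on day 0. In both, each day 5 fold was below each day 0 fold. The peaks chrX:130489722-130490050 (score 38.6) and chr15:15112098-15112374 (score 33.9) were listed for PU.1 in day 5 replicate 2 alone, with folds of 5.88 and 7.51, and had site scores between 2.80 and 4.56. All 5 thus had day 5 site scores below 5.

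Closed-site peaks had fewer DNase sites around them than peaks inside sites, which were chosen for lying in one. Many closed-site peaks were close to a site. Whole autosomes held between 81.2 (chromosome 14) and 208 (chromosome 19) day 0 sites per Mb, so a low density against the genome is not shown. The median distance to the nearest day 0 site was 4326 bp (quartiles 977 and 21958). For peaks outside sites with a merged day 5 peak it was 14474 bp. A day 0 site lay within 1000 bp of 349 closed-site peaks (25.7%), within 200 bp of 108 and within 50 bp of 36, and 121 had none within 100000 bp. The median number of day 0 sites within 50 kb was 10, against 3 for peaks outside sites with a merged day 5 peak and 30 and 29 for the groups inside sites without and with one, where the site a peak lies in was not counted. On day 5 the corresponding medians were 37, 17, 58 and 58. Close to the threshold, the closed-site peaks nearest to a site were chr11:118131562-118131831 and chrX:106516539-106516823, each 1 bp from it, and chr12:32823215-32823507, 3 bp from it. Their scores were 15.1, 20.3 and 7.37, and all 3 lay in a site of 1 day 5 replicate. Just inside a site, and so not closed-site peaks, were chr14:75255305-75255576 with 1 bp of overlap, and chr5:45695038-45695367 and chr9:14404753-14405387 with 3 bp each. Their scores were 10.5, 21.9 and 23.7. Requiring more than 1000 bp to any day 0 site left 1008 peaks, of which 15.1% lay in a day 5 site.

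Other lists placed few closed-site peaks. No deposited DNase footprint (a short protected stretch inside a site) overlapped a closed-site peak on day 5 or day 0, that is 0 of 1357, which allows a share of up to 0.221% (3 counts). On day 5, 27.7% and 55.3% of peaks inside sites without and with a merged day 5 peak held a footprint, and 30.6% of all day 0 peaks did. For footprints of day 0 these shares were 46.4%, 76.6% and 47.8%. Footprints lay inside sites of their own day, 157875 of 158217 on day 5 and 155720 of 155765 on day 0, so the count of 0 on day 0 is nearly fixed by the choice of the peaks. On day 5, 155969 of 158217 lay inside the intersected list of sites, which overlapped 2.80% of closed-site peaks. The count of 0 on day 5 was thus held low as well. Of the ChIA-PET vertices, which the authors built from DNase, polymerase II and cohesin regions, a 1 kb vertex overlapped 51 closed-site peaks (3.76%) and a 3 kb vertex 192 (14.1%). Of all day 0 peaks, 77.4% and 81.3% overlapped a vertex of these sizes. Since vertices were built in part from DNase sites, the choice of peaks outside such sites holds these counts and the edge counts down, and nothing is read from the gap. A 1 kb vertex with an edge on day 5 overlapped 2 closed-site peaks, against 11.7% of all day 0 peaks, and the count was also 2 on day 0, against 11.6%. With 3 kb vertices the counts were 21 on day 5 and 25 on day 0, against 24.4% and 27.3% of all day 0 peaks.

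Both of these peaks, named after their values were seen, touched their vertex by its edge. The peak chr19:29684190-29684432 (score 19.1) shared 66 bp with a vertex that had an edge to chr19:29721510-29723722 on day 5, and edges to chr19:29640731-29642357 and chr19:29646585-29647649 on day 0. The edge partner thus differed between the days. The peak chr3:94836606-94836817 (score 20.9) shared 67 bp with a vertex linked to chr3:94845499-94847663 on both days, with edge scores of 2.84 on day 5 and 1.90 on day 0. For each vertex size a single ChIA-PET edge list was deposited per day and none per replicate, so no spread can be given.

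Closed-site peaks were found on all 19 autosomes, X and Y, and their share of the peaks was highest on X among the chromosomes with more than 10 day 0 peaks. On X 97 of 445 day 0 peaks were closed-site peaks (21.8%, 18.2 to 25.9%), against 9.24% of autosomal peaks (8.76 to 9.73%). The autosomes ranged from 5.03% on chromosome 11 to 14.1% on chromosome 13, so X stood above all 19, and its interval did not reach that of chromosome 13 (11.5 to 17.0%). On Y 3 of 10 peaks were closed-site peaks. Each PU.1 library of day 0 showed the same order: 42.4% and 40.8% of all X peaks of replicates 1 and 2 lay outside day 0 sites, against 21.1% and 19.3% of autosomal peaks. The day 5 libraries showed it as well, with 31.5% and 38.7% on X against 17.9% and 18.6% on autosomes.

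For its length X did not stand apart in closed-site peaks. Per 100 Mb, measured up to the last listed interval, X held 58.2 closed-site peaks, inside the autosomal range of 38.0 (chromosome 5) to 77.7 (chromosome 17). All day 0 peaks together numbered 267 per 100 Mb on X, below every autosome (384 on chromosome 14 to 931 on chromosome 11). Day 0 DNase sites showed the same shortfall, with 59.5 per Mb on X and 81.2 on chromosome 14, the lowest autosome. Over the 19 autosomes the share of closed-site peaks was lower where day 0 DNase sites were denser (Spearman's rho −0.59, Pearson's r −0.69). Closed-site peaks were chosen for lying outside these same sites, so a negative sign is in part set by the choice. The chromosomes also share their libraries, so the values only describe them and nothing is read from them. On day 5 the closed-site peaks of X did as the others did: 17.5% lay in a DNase site and 48.5% had a PU.1 peak in either replicate, against 16.9% and 46.5% of autosomal ones.

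**Figure D5:**
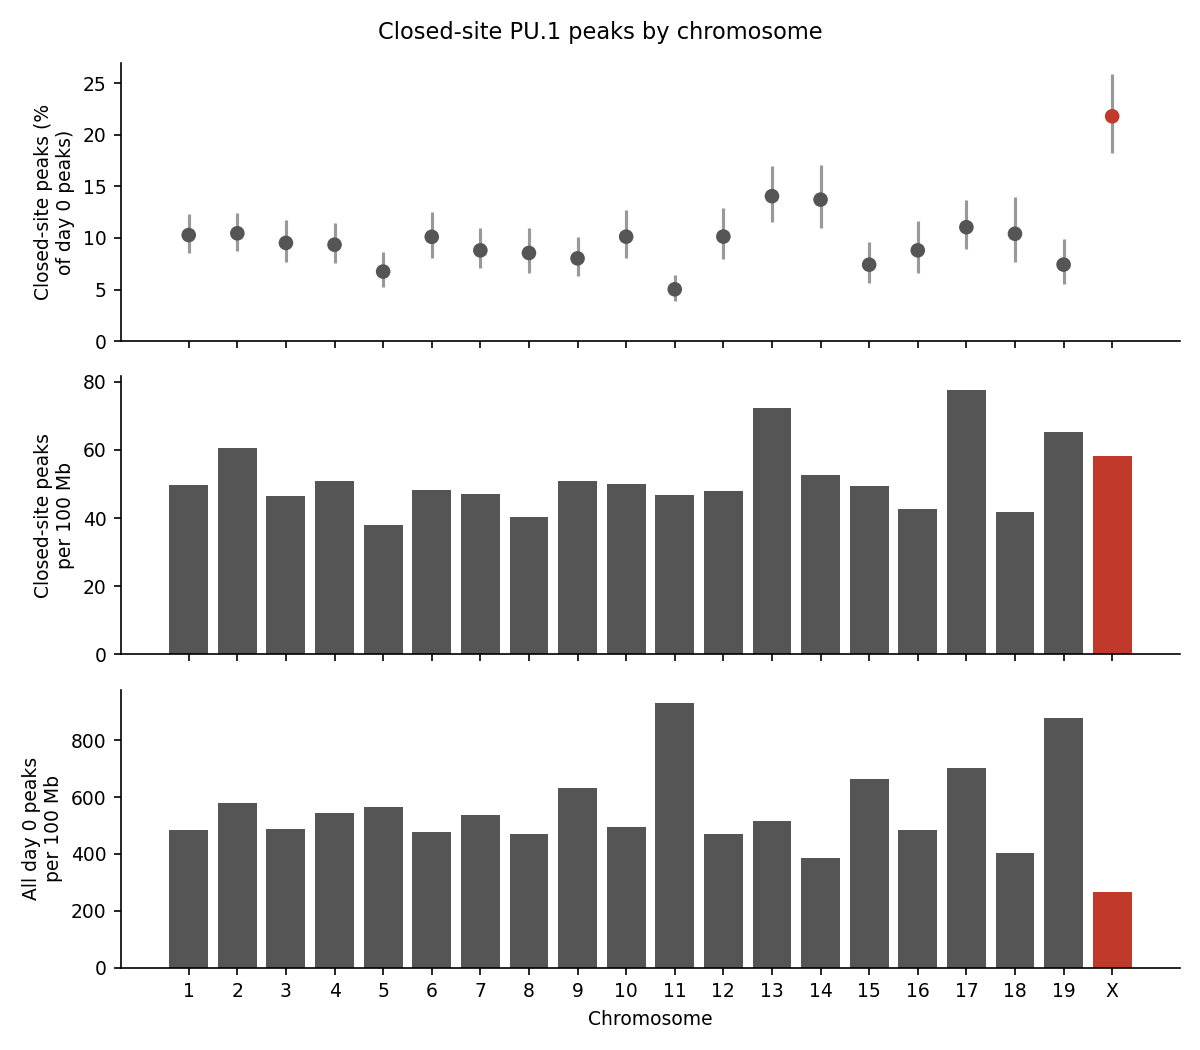
Closed-site peaks as a share of the day 0 peaks of each chromosome (top, %, with 95% Wilson intervals), closed-site peaks per 100 Mb (middle) and all day 0 peaks per 100 Mb (bottom), with X in red and Y left out. X has the highest share, 21.8%, with 58.2 closed-site peaks per 100 Mb and the fewest day 0 peaks, 267 per 100 Mb.

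Closed-site peaks were mostly scattered, with a few local groups. The nearest other day 0 peak was a median of 56231 bp away, against 19087 bp for peaks inside sites without a merged day 5 peak, and the nearest other closed-site peak 443271 bp. The fullest 1 Mb window was chr17:6274409-7172335, with 12 closed-site peaks and 8 peaks outside sites with a merged day 5 peak among 24 day 0 peaks. The 12 had a median score of 45.9, and 4 were listed by a day 5 PU.1 replicate. In chr4:41817720-42743664 all 6 day 0 peaks were closed-site peaks, with scores between 17.7 and 19.5 and 1 merged day 0 site across 925945 bp. All 6 were listed by a day 5 PU.1 replicate, and none lay in a day 5 DNase site. Windows with 6 or 7 closed-site peaks each lay at chr7:3826601-4668816, chrX:130652677-131587301 and chr2:176775678-177629686. In the window on X, 5 closed-site peaks started within 10 kb, and 3 of these had the same score, 15.7, and the same folds, 3.96 and 4.33 in day 0 replicates 1 and 2, with widths of 457 or 458 bp.

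Such repeats of the same values occurred at more places, a feature found after the values were seen. A peak was counted as repeated when another day 0 peak of its chromosome had the same fold, −log10 p and width in both replicates, 6 values in all. Peaks alike in fewer values, such as the 3 of equal score and folds in the window on X, were not counted. The counts of repeats are thus low. By this count 24 closed-site peaks (1.77%, 1.19 to 2.62%) were repeated, as were 27 of 213 peaks outside sites with a merged day 5 peak (12.7%, 8.86 to 17.8%). Of the 12494 peaks inside day 0 sites, 0 were, which allows a share of up to 0.024%. The 24 belonged to 12 sets on 7 chromosomes, each spanning between 49637 and 9299472 bp (median 554580.5 bp). In chr14:26791581-26791925, chr14:26931353-26931697 and chr14:27070966-27071310 all 3 peaks were 345 bp wide, scored 72.1 and had day 0 folds of 28.4 and 18.1 in replicates 1 and 2. On X, the pairs chrX:23700919-23701440 with chrX:23765450-23765971 and chrX:166521846-166522155 with chrX:166644601-166644910 scored 68.0 and 65.7 at both places. The pairs chr4:41920248-41920498 with chr4:42560383-42560633 and chr4:42274890-42275156 with chr4:42743398-42743664 belonged to the window on chromosome 4 above, and 3 sets lay on chromosome 2. The window on chromosome 17 held repeated peaks outside sites with a merged day 5 peak, such as chr17:6654434-6655016 with chr17:6806436-6807018. Counts of peaks in both windows thus include repeats of the same values. Repeated closed-site peaks lay far from open chromatin, at a median of 98157 bp from a day 0 site. On day 5 18 of 24 were listed by a PU.1 replicate, and 0 of 24 lay in a DNase site, which allows a share of up to 12.5% (3 counts). The 24 peaks share values within 12 sets and are not separate observations, so this limit is too tight. Whether the places of a set share their sequence was not tested, since no genome of the build of the files was used here. Without the peaks counted as repeated, 20.7% of X peaks were closed-site peaks, against 9.13% of autosomal peaks. Peaks alike in fewer values stay in both shares.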

How the data were processed

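The regions were lists that the authors made and deposited in mm9 coordinates, the build named in the submitters' processing notes. For PU.1, Bowtie 1.0.0 and MACS2 2.0.10 are named in the submitters' processing notes, and each replicate list as deposited gives for each peak its −log10 p and its fold enrichment, a ratio. The merged list of each day carries the authors' score and IDR, a q-value per peak that compares both replicates, per the file headers. DNase sites, footprints and ChIA-PET edges were deposited with the authors' scores; Bowtie and bedtools are named for DNase, and neither labels nor notes say how reads with several placements were treated. RNA values were FPKM as deposited by the authors, and some marker genes are not reported here. Read depth is unknown for every list.

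Groups came from the sample titles. Overlaps of at least 1 bp, nearest distances and shares were computed with Python 3.11.15, pandas 2.3.3, numpy 2.4.6 and scipy 1.17.1 on half-open intervals, and printed starts count from 1. The interval functions were tested on simulated data and against bedtools 2.31.1. Shares carry 95% Wilson intervals for counting error. For a count of 0 the limit given is instead 3 counts divided by the number of peaks, which is tighter. The upper Wilson limits were 0.282% for footprints in closed-site peaks and 13.8% for day 5 sites over repeated closed-site peaks. No test was run over regions. Named regions were the 5 highest-scoring and 3 lowest-scoring closed-site peaks, the 3 nearest to a day 0 site, the 3 other peaks with the smallest overlap of one, and the 5 highest-scoring in a site of both day 5 replicates; regions outside this rule were named after their values were seen. The closed-site peaks, lists and alternatives were chosen with earlier results of these data known. The PU.1 inputs (1 per day) were not analysed here, no gene or sequence of the build was used, and so peaks carry no gene annotation.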

Additional observations from a re-analysis of the deposited data

How the results depend on the processing

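No paired analysis was possible because the results come from no test and each list of regions stands alone. The median score of 20.1 and width of 280 bp moved by less than the spread between the day 0 replicates under most settings: score moved to 43.6 and width to 329 bp among the 275 peaks at or above the median score of all day 0 peaks, and score to 15.7 among the 725 that no day 5 replicate listed. With the intersected day 0 list 2260 peaks qualified.

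The share in a day 5 DNase site, 16.9%, was 19.1% when a day 0 site had to cover at least 50% of a peak, 25.7% with the intersected day 0 list, 14.9% at or above the median score, and between 8.84% and 24.9% when 1 DNase replicate of either day was left out. It was 8.99% when the day 5 site had to cover at least 50% of the peak, 2.80% with the intersected day 5 list, 5.45% with day 5 lists cut to the length of the day 0 lists, and 3.91% with day 5 sites scoring at least 4, a limit chosen after seeing the data. Peaks inside sites without a merged day 5 peak stayed between 62.6% and 80.5% in the settings on day 5 lists, at 79.2% with weighting by score. In peaks outside sites with a merged day 5 peak weighting gave 15.0%, with 5 of 10 score bins under 20 peaks. The share with a PU.1 peak in either day 5 replicate, 46.6%, was 85.5% at or above the median score, 19.8% with at least 50% covered, between 24.4% and 46.4% with 1 replicate of either assay left out, and between 45.8% and 48.9% under the other settings; it is 0 by construction where no day 5 replicate may list the peak, so that setting was not run for it. Weighting by score gave 50.4% inside sites (added after seeing the data). With 3 kb vertices the share with an edge was 1.55% on day 5 and 1.84% on day 0, against 0.147% with 1 kb vertices. X held 7.15% of closed-site peaks, and 21.8% of X peaks were closed-site peaks. Settings added after seeing the data gave 10.3% of X peaks at or above the median score (3.69% of autosomal ones), 11.2% where no day 5 replicate listed the peak (4.94%), and between 23.1% and 29.0% without a day 0 DNase replicate (10.8% and 14.0%). Unknown read depth limits every share, since a deeper DNase library could list more sites.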

Other observations

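Many more PU.1 peaks outside day 0 DNase sites were listed in the day 0 replicates and did not reach the merged list, whether or not the other replicate listed them too. Of 20468 peaks of replicate 1 missing from the merged list, 5999 (29.3%) lay outside day 0 sites, and of 31942 such peaks of replicate 2, 7689 (24.1%) did. Their median folds were 5.88 and 4.89, below the medians of 9.65 and 9.03 of the closed-site peaks. On day 5 18.1% and 17.96% of them lay in a DNase site of either replicate, and 7.30% and 7.50% were on X. The closed-site peaks had 16.9% and 7.15% for the same quantities.

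Peaks outside sites were more frequent near the low end of the chromosomes, which in mouse is the centromeric end. The first 10 Mb held 8.33% of closed-site peaks (6.97 to 9.92%) and 18.8% of peaks outside sites with a merged day 5 peak (14.1 to 24.6%), against 4.88% and 4.81% of peaks inside sites without and with one. All day 0 peaks together had 5.41% there. The window on chromosome 17 described above, with 12 closed-site peaks and 8 peaks outside sites with a merged day 5 peak, lies in this stretch, and so does the window on chromosome 7. Some of those 8 were repeats of the same values.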
